A study of Mus musculus with 10 samples.

Results

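These results concern 320 intronic polyadenylation (IPA) sites that 4T1 cells already used before their U1 small nuclear RNA was targeted. They are the sites of the authors' deposited tables for 4T1-U1-ASO against 4T1 whose mean usage over the 2 4T1 libraries was 5% or more, out of 1561 sites listed there. Usage is the reads of the site divided by the reads of the site plus those of the last exon of its gene, in percent. By the direction in the deposited tables, 177 of the 320 sites gained usage in 4T1-U1-ASO and 143 lost it. The sites lie in 286 genes. All 5 groups of the study were mouse mammary tumour lines cultured with 10% fetal bovine serum, with 2 3'-end sequencing libraries each. 4T1-U1-ASO is the line 4T1 given an antisense morpholino against U1 small nuclear RNA with the Endo-Porter delivery reagent at 6 µl/mL, and 4T1 is its comparison. The series design calls that comparison mock-transfected, while the labels of the 4T1 libraries state no treatment. 4T07 carries the label invasive, as 4T1 does, and 168FARN and 67NR the label non-invasive. Whether both libraries of a line were grown as separate cultures is not stated in the labels. The p-values below therefore compare with library-to-library spread alone, which could be of technical origin.

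The U1 small nuclear ribonucleoprotein recognises the start of introns during splicing. It is also known to shield introns from the cleavage and polyadenylation machinery, an activity called telescripting, so that blocking U1 with an antisense morpholino is known to bring cryptic intronic poly(A) sites into use. An IPA site that is used gives a transcript that ends inside the intron and lacks the exons beyond it, in competition with the transcript that runs to the last exon. Most work on U1 blockade looks at sites that are silent in untreated cells, whereas the sites described here were active in 4T1.

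The 4T1-U1-ASO peak lists held 2596503 and 2643219 reads in the first and second library, and the 4T1 lists held 2499475 and 2795040. The normalised site and last-exon values of the tables came out as whole reads in 100% of cases within 0.1 read, and these recovered reads are given below. The authors' size factors set the median last-exon ratio of all 1561 listed sites to -0.66 on the log2 scale (4T1-U1-ASO over 4T1), whereas scaling by the peak-list totals, chosen after seeing the data, gave -0.06. Ratios of reads are therefore given on both scales, and usage depends on neither. The 4T1-U1-ASO lists held 100236 and 98270 peaks, 3115 and 2991 of them on chromosomes X and Y. The 4T1 lists held 54210 and 66543 peaks, with 0 on X and Y in each. The totals thus sum unlike sets of peaks. The first 4T1 library stood apart at the last exon. The last-exon value of 37 of the 143 losing sites differed by over 2-fold between the 2 4T1 libraries, and in 35 of them the first library was the lower one, against 2 such sites between the 4T1-U1-ASO libraries. Of 14 markers listed for epithelial, mesenchymal and other cells, the tables name Cdh1, the epithelial cadherin, and Vim, the mesenchymal filament vimentin. Cdh1 had 1305 and 1370 last-exon reads in 4T1-U1-ASO and 800 and 952 in 4T1, and Vim had 3017 and 2772 in 4T1-U1-ASO and 12512 and 13028 in 4T1. The part of cell state in the usage differences was not tested.

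The tables listed mostly gains, but a site's direction differed with how much 4T1 used it. Of the 1368 listed gaining sites 12.9% reached the usage minimum, and of the 193 losing sites 74.1% did. Losing sites made up 0 of the 205 listed sites with no read in 4T1 and 50 of the 1036 used at under 5%. Their share was 24% of sites used at 5 to 10%, 50% at 10 to 25%, 50% at 25 to 50% and 91.9% (34 of 37) at 50% or more. The 3 sites used at 50% or more that still gained lay in Ndufab1, Srpr and Rab10os. A site at 0 usage can only gain and a site near 100% can only lose, and the sites entered the tables by this same contrast, so these shares describe the tables and carry no test.

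**Figure D1:**
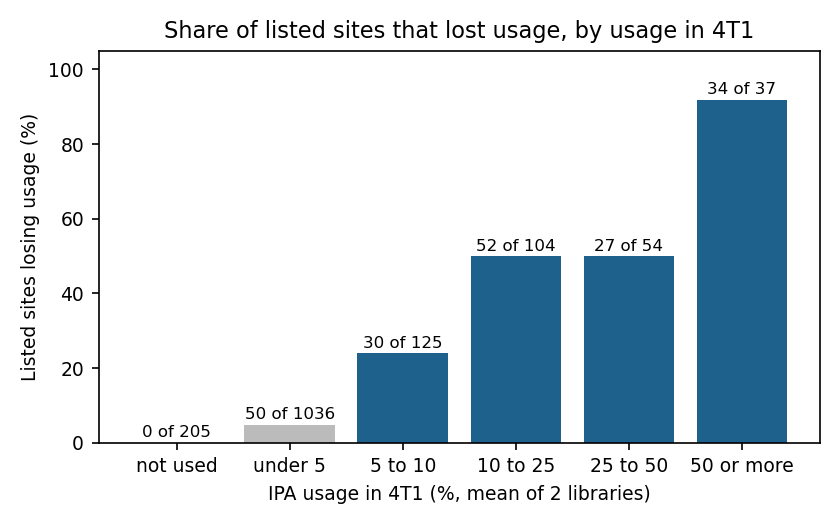
Percentage of listed IPA sites that lost usage in 4T1-U1-ASO (y axis, %) by mean usage in 4T1 (x axis, %), with the number losing of the number listed above each bar and the well-used sites in blue. The share was 4.83% among sites used at under 5% and 91.9% among those used at 50% or more.

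Just outside the minimum lay the site of Lamb1, which encodes a laminin chain, at 4.99% usage in 4T1, and that of Tmem183a at 4.96%. Among those just inside was the site of Prodh, proline dehydrogenase, at 5.17% ± 2.66 in 4T1 (SD, n = 2). Both 4T1 libraries were at 5% or more for 152 of the 177 gaining and 129 of the 143 losing sites.

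Median usage of the gaining sites was 25.3% in 4T1-U1-ASO and 9.57% in 4T1, with a median difference of 15.0 percentage points and a range of 4.88 to 81.4. For the losing sites the medians were 3.84% in 4T1-U1-ASO and 19.2% in 4T1, with a median difference of -14.3 percentage points and a range of -75.0 to -3.48. The median over all 1561 listed sites was 3.47 percentage points. At all 177 gaining sites both 4T1-U1-ASO libraries were above both 4T1 libraries, where 87.5% of all listed sites were, and at all 143 losing sites both were below, where 12.4% of all listed sites were. edgeR on the recovered reads (adjusted p under 0.05) called usage higher at 176 of 176 gaining sites tested, with 87.7% of all listed sites called higher, and lower at 141 of 141 losing sites tested, with 12.3% called lower. Nothing is read from these counts, since the tables were selected on the same contrast. Usage ended under 5% in 4T1-U1-ASO at 82 of the 143 losing sites and above 50% at 30 of the 177 gaining sites.

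**Figure D2:**
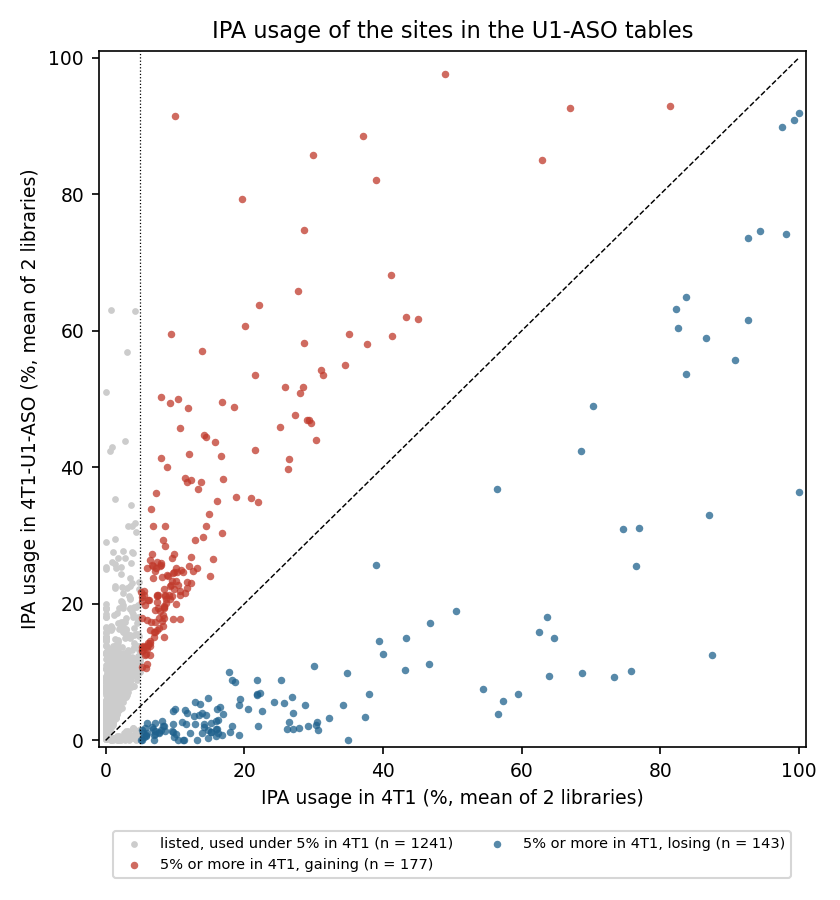
Mean IPA usage over 2 libraries in 4T1-U1-ASO (y axis, %) against 4T1 (x axis, %), 1 point per listed site. The dotted line marks the 5% minimum, and the 177 gaining (red) and 143 losing (blue) sites to its right lie on either side of the dashed line of equal usage.

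Among the losing sites with at least 20 reads of site plus last exon in every library, the largest difference was in Dancr, a long noncoding RNA gene (chromosome 5, 74489121 to 74489333 in mm9, plus strand). Its IPA site had 2 and 2 reads in 4T1-U1-ASO and 158 and 110 in 4T1, beside 19 and 20 last-exon reads in 4T1-U1-ASO and 40 and 55 in 4T1. Usage was 9.31% ± 0.31 in 4T1-U1-ASO and 73.2% ± 9.29 in 4T1 (SD, n = 2 each), so that the site went almost unread and the last exon was lower as well. Eif4a2, a translation initiation helicase, had 30 and 37 site reads in 4T1-U1-ASO and 149 and 141 in 4T1, and its usage was 30.9% ± 7.11 in 4T1-U1-ASO and 74.6% ± 13.6 in 4T1 (SD, n = 2 each). Here too the site reads of both treated libraries lay far below both 4T1 libraries, while the last-exon reads of the groups overlapped, with 86 and 66 in 4T1-U1-ASO and 28 and 76 in 4T1. Uchl5, a deubiquitinase of the proteasome, had 8 and 7 site reads in 4T1-U1-ASO, at a usage of 2.26% ± 0.01 in 4T1-U1-ASO and 30.4% ± 11.1 in 4T1 (SD, n = 2 each).

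At a second kind of losing site the last exon gained, while the site kept many of its reads before scaling. Rock2, a kinase that drives actomyosin contraction, showed this at its most 5' listed site (chromosome 12, 16929810 to 16929853, plus strand). The site had 34 and 35 reads in 4T1-U1-ASO and 41 and 49 in 4T1, whereas the last exon had 843 and 887 reads in 4T1-U1-ASO and 16 and 70 in 4T1. Usage was 3.84% ± 0.06 in 4T1-U1-ASO and 56.6% ± 21.7 in 4T1 (SD, n = 2 each), and the 2 4T1 libraries were 71.9% and 41.2%. The site log2 ratio was -0.96, or -0.36 by peak-list totals. The last-exon log2 ratio was 3.84, or 4.38 by peak-list totals. Last-exon reads of the groups did not overlap, and the 2 4T1 libraries themselves stood far apart. Rrm2b, the p53-inducible subunit of ribonucleotide reductase, had 24 and 15 site reads in 4T1-U1-ASO and 15 and 21 in 4T1, with 96 and 113 last-exon reads in 4T1-U1-ASO and 5 and 21 in 4T1. Macrod1, which removes ADP-ribose from proteins, had 32 and 23 site reads in 4T1-U1-ASO and 29 and 24 in 4T1, with 51 and 74 last-exon reads in 4T1-U1-ASO and 9 and 7 in 4T1. In both genes the site reads of the groups overlapped before scaling and the last-exon reads did not overlap. The site log2 ratio was -0.44 for Rrm2b (0.14 by peak-list totals) and -0.56 for Macrod1 (0.06). Usage of Rrm2b was 15.9% ± 5.86 in 4T1-U1-ASO and 62.5% ± 17.7 in 4T1, and that of Macrod1 was 31.1% ± 10.5 in 4T1-U1-ASO and 76.9% ± 0.78 in 4T1 (SD, n = 2 each).

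The other losses among the 10 largest above the same minimum of reads lay in Ankhd1, an ankyrin-repeat protein, Slc22a4, an organic cation transporter, Smarcad1, a chromatin remodeller, Stag1, a cohesin subunit, and Cpeb3, which binds cytoplasmic polyadenylation elements. Their differences were -54.0, -52.7, -50.9, -35.4 and -35.0 percentage points in that order. Smarcad1 had 27 and 18 site reads in 4T1-U1-ASO and 54 and 58 in 4T1, and its last exon had 75 and 55 reads in 4T1-U1-ASO and 7 and 32 in 4T1, so both features separated the groups. Leaving out the first 4T1 library took the difference of Slc22a4 to -26.5 percentage points and that of Stag1 to -18.8. Leaving out the second 4T1-U1-ASO library took that of Cpeb3 to -21.0.

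Of the losing sites, 8 had no read in either 4T1-U1-ASO library. They lay in Sorcs2, Tbc1d16, Gpr107 (2 sites), Utp14a, Fbxo9, Pole and Prodh. The Sorcs2 site, in a gene of a sortilin-family receptor, was used at 35.0% ± 5.50 in 4T1 (SD, n = 2), with 14 and 14 site reads there. With 0 of 42 reads in 4T1-U1-ASO its usage could be up to 7.14% (3 reads over the group, counting error only). Prodh had 0 of 193 reads in 4T1-U1-ASO, which allows up to 1.55%, and 11 and 5 site reads in 4T1. At the other end, 2 losing sites had no last-exon read in either 4T1 library. Ankrd33b had 61 and 63 site reads in 4T1-U1-ASO and 30 and 42 in 4T1, with 5 and 6 last-exon reads in 4T1-U1-ASO. Enox1 had 3 and 3 site reads in 4T1-U1-ASO and 7 and 4 in 4T1, with 4 and 7 last-exon reads in 4T1-U1-ASO, so it rests on few reads throughout.

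The losing sites with the most reads belonged to abundant transcripts. Rps26, a ribosomal protein of the small subunit, had 257 and 313 site reads in 4T1-U1-ASO and 978 and 1002 in 4T1, at 5.65% ± 0.22 usage in 4T1-U1-ASO and 12.9% ± 0.32 in 4T1 (SD, n = 2 each). Vmp1, a membrane protein of autophagosome formation, was used at 36.9% ± 6.47 in 4T1-U1-ASO and 56.4% ± 2.91 in 4T1, and Ppp2r5c, a regulatory subunit of protein phosphatase 2A, at 42.4% ± 2.02 in 4T1-U1-ASO and 68.5% ± 5.11 in 4T1 (SD, n = 2 each). The replicates of Rps26 lay within a fraction of a percentage point, so its smaller difference had the tighter values of the 3.

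Among gaining sites with at least 20 reads of site plus last exon in every library, the largest difference was in Nudt5, an ADP-sugar pyrophosphatase, which had a pair of members. The downstream one (chromosome 2, 5778275 to 5778874, plus strand) had 75 and 57 reads in 4T1-U1-ASO and 4 and 16 in 4T1, and the upstream one had 36 and 42 in 4T1-U1-ASO and 10 and 9 in 4T1. Their shared last exon had 9 and 8 reads in 4T1-U1-ASO and 17 and 13 in 4T1. Usage was 88.5% ± 1.13 in 4T1-U1-ASO and 37.1% ± 25.5 in 4T1 downstream, and 82.0% ± 2.83 in 4T1-U1-ASO and 39.0% ± 2.74 in 4T1 upstream (SD, n = 2 each). The wide spread downstream came from 4T1 libraries at 19.0% and 55.2%, and without the first of them the difference was 33.3 percentage points in place of 51.4.

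Tra2b and Srsf10, which encode splicing regulators of the SR-related family, also had sites among the largest gains. The Tra2b site (chromosome 16, 22258935 to 22259386, minus strand) had 516 and 686 reads in 4T1-U1-ASO and 19 and 68 in 4T1, beside 514 and 672 last-exon reads in 4T1-U1-ASO and 341 and 568 in 4T1. Usage was 50.3% ± 0.30 in 4T1-U1-ASO and 7.98% ± 3.83 in 4T1 (SD, n = 2 each), and the site log2 ratio was 3.29, or 3.83 by peak-list totals. The Srsf10 site had 88 and 103 reads in 4T1-U1-ASO and 5 and 28 in 4T1, and its usage was 57.0% ± 6.57 in 4T1-U1-ASO and 13.9% ± 6.35 in 4T1 (SD, n = 2 each). In both genes the site reads of the groups were far apart.

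In Cars2 and Dhx37 the last exon moved more than the site, on both scales. Cars2, the mitochondrial cysteinyl-tRNA synthetase, had 25 and 32 site reads in 4T1-U1-ASO and 21 and 27 in 4T1, which overlap before scaling. Its site log2 ratio was -0.33, or 0.26 by peak-list totals. The Cars2 last exon had 16 and 16 reads in 4T1-U1-ASO and 76 and 92 in 4T1, which do not overlap. Usage of the Cars2 site was 63.8% ± 4.02 in 4T1-U1-ASO and 22.2% ± 0.74 in 4T1 (SD, n = 2 each). Dhx37, a helicase of ribosome assembly, had 14 and 15 site reads in 4T1-U1-ASO and 11 and 6 in 4T1, with 8 and 11 last-exon reads in 4T1-U1-ASO and 32 and 35 in 4T1. Acyp2, an acylphosphatase, Rasa4, a GTPase-activating protein for Ras, Ankrd11, a chromatin regulator, and Als2cl completed the 10 largest gains above the same minimum of reads, at 46.1, 39.6, 38.0 and 36.8 percentage points in that order. Their site log2 ratios were 1.62, 0.48, 2.04 and 1.82, or 2.21, 1.07, 2.64 and 2.36 by peak-list totals. The Rasa4 libraries of 4T1-U1-ASO were 66.7% and 33.3%, and without the first of them the difference was 22.9 percentage points. Serbp1, an mRNA-binding protein, and Canx, the chaperone calnexin, had, with Rbm39, the most site reads of gaining sites over the 4 libraries. Serbp1 and Canx were at 17.8% ± 0.88 and 30.4% ± 2.03 in 4T1-U1-ASO and 10.8% ± 2.09 and 16.8% ± 4.77 in 4T1 (SD, n = 2 each).

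**Figure D3:**
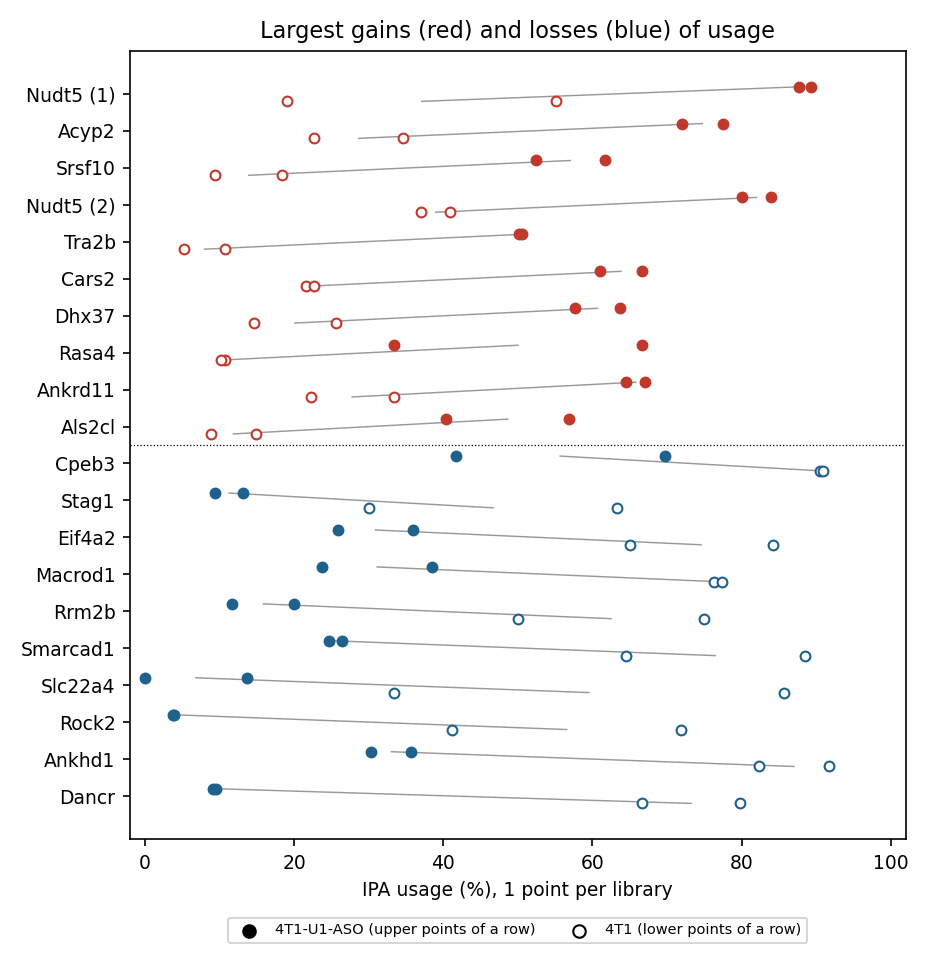
IPA usage per library (x axis, %) for the 10 largest gains (red, top) and the 10 largest losses (blue, bottom) among sites with at least 20 reads in every library, with 4T1-U1-ASO as filled points above 4T1 as open points in each row and a line joining the means. Nudt5 (1) is the downstream and Nudt5 (2) the upstream site, and no row has overlapping groups.

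Seen across all members, gaining and losing sites differed in which of the 2 read numbers moved. Site reads of the gaining sites had a median log2 ratio of 0.84 (1.43 by peak-list totals) and their last exons -0.83 (-0.23). Site reads of the losing sites had a median of -2.05 (-1.53) and their last exons 0.44 (1.01), against -0.66 (-0.06) for the last exons of all listed sites. Site reads were lower in 4T1-U1-ASO with last-exon reads higher at 93 losing sites (107 by peak-list totals), and both were lower at 48 (27). Site reads were higher with last-exon reads lower at 119 gaining sites (100 by peak-list totals), both were higher at 33 (71), and both were lower at 25 (6). The last-exon median of the losing sites stayed above 0 without any 1 library, at 0.31 to 0.59.

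By edgeR on site reads alone, with the authors' size factors and adjusted p under 0.05, 94 of 171 gaining sites tested were higher, beside 53.4% of all listed sites tested, and 93 of 102 losing sites were lower, beside 16.0%. With peak-list totals the counts were 153 of 173 beside 77.5% and 68 of 90 beside 10.7%. On last-exon reads alone, 104 of 175 gaining sites were lower, beside 55.1% of all tested, and 16 were higher, beside 9.16%. Of 139 losing sites tested on the last exon, 47 were higher, beside the same 9.16%, and 29 were lower. With peak-list totals 49 gaining sites had a lower last exon, beside 26.0% of all tested, and 23 a higher one, beside 17.0%, while 66 losing sites had a higher and 8 a lower last exon. The split of last-exon calls thus moved with the scaling in both classes. Calls also depended on single libraries. Leaving out the first or the second 4T1-U1-ASO library lowered the calls on both features, at members and over all listed sites. The median site log2 ratio of the gaining sites was then 0.84 or 0.86. Their last-exon median was then -0.85 or -0.87, and that of the losing sites 0.48 or 0.41. Of the 170 gaining sites tested on both features, 69 had a lower last exon with site reads not called either way, beside 28.9% of all listed sites so tested. Of the 100 losing sites tested on both, 22 had lower site reads together with a higher last exon, beside 2.67% of all listed sites. These calls come from the contrast that chose the sites and are given as a description.

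**Figure D4:**
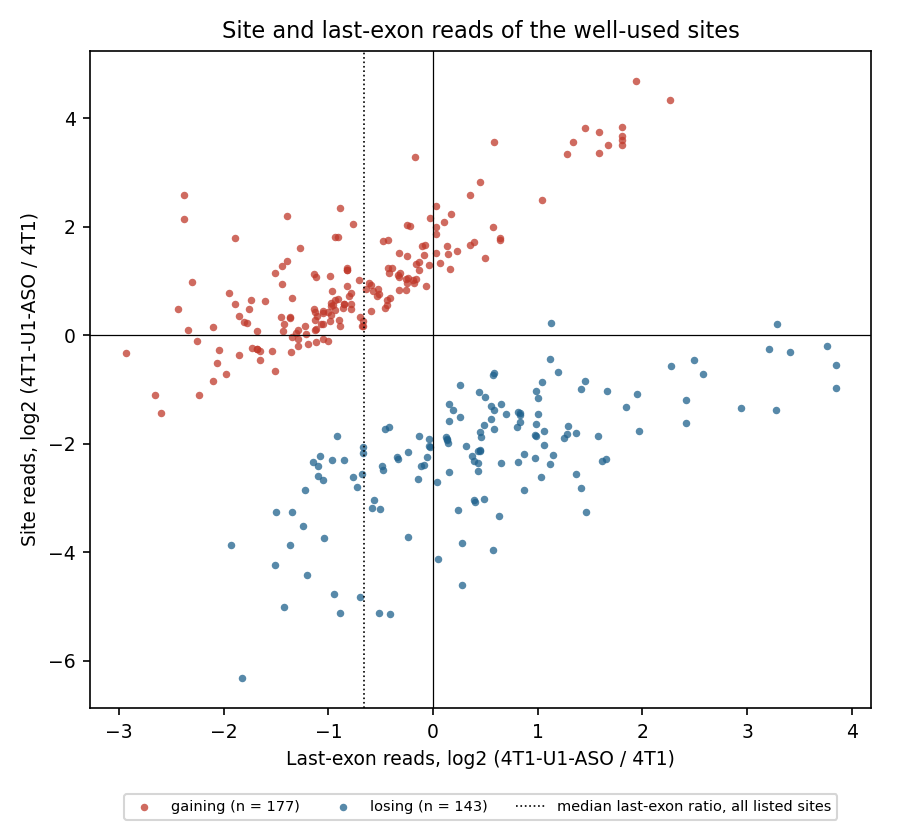
Log2 ratio of site reads (y axis) against that of last-exon reads (x axis), 4T1-U1-ASO over 4T1, with the authors' normalisation and 1 point per well-used site. The dotted line is the last-exon median of all listed sites at -0.66, and the losing sites (blue) extend to the right of it with a median of 0.44.

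Genes of the splicing machinery had mostly gaining members. All 7 members in the list of SR and hnRNP proteins gained usage, with a median difference of 16.9 percentage points, beside 15.0 over all gaining members and 3.58 over the 55 listed sites of that list. Besides Tra2b and Srsf10 they included Hnrnph1, a regulator of alternative splicing, at 68.2% ± 0.62 in 4T1-U1-ASO and 41.1% ± 1.87 in 4T1, and Srpk1, a kinase of SR proteins, at 35.7% ± 1.24 in 4T1-U1-ASO and 18.8% ± 4.25 in 4T1 (SD, n = 2 each). In the list of the U1 particle and the spliceosome 4 members gained and 1 lost. The gains lay in Rbm39, a splicing factor related to U2AF, Srrm2, a scaffold of nuclear speckles, and the helicases Dhx15 and Ddx5. Srrm2 was used at 47.6% ± 2.32 in 4T1-U1-ASO and 27.3% ± 4.93 in 4T1, and Dhx15 at 39.7% ± 1.04 in 4T1-U1-ASO and 26.3% ± 3.32 in 4T1 (SD, n = 2 each). Members included, 53 of the 55 listed sites of the SR and hnRNP list and 39 of the 40 of the spliceosome list gained, beside 1368 of 1561 in all.

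Each of the 3 members in the DNA damage and repair list lost usage, beside 143 of all 320 members, whereas 8 of the 11 listed sites of that list gained. The list is not complete, since Helq (gaining) and Nsmce4a (losing), also genes of DNA repair, have members outside it. Rad50, of the double-strand break sensor complex, had 3 and 0 site reads in 4T1-U1-ASO and 3 and 11 in 4T1, with 82 and 110 last-exon reads in 4T1-U1-ASO and 6 and 38 in 4T1. Smc6, of the SMC5/6 complex, had 8 and 10 site reads in 4T1-U1-ASO and 1 and 16 in 4T1, with 427 and 424 last-exon reads in 4T1-U1-ASO and 7 and 51 in 4T1. The site reads of both genes were few and, before scaling, overlapped between groups, and the last-exon reads did not overlap. The site log2 ratio was -2.29 for Rad50 (-1.85 by peak-list totals) and -0.31 for Smc6 (0.16). Usage was 1.76% ± 2.50 in 4T1-U1-ASO and 27.9% ± 7.70 in 4T1 for Rad50, and 2.07% ± 0.33 in 4T1-U1-ASO and 18.2% ± 8.05 in 4T1 for Smc6 (SD, n = 2 each). Without the second 4T1 library the difference of Smc6 was -10.4 percentage points in place of -16.1. Ercc1, the partner of a nucleotide excision repair nuclease, had 20 and 27 site reads in 4T1-U1-ASO and 72 and 89 in 4T1, and its last exon was lower too, with 271 and 222 reads in 4T1-U1-ASO and 354 and 365 in 4T1.

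The list of chromatin and RNA polymerase II transcription genes held 11 members, of which 8 gained and 3 lost, beside 177 and 143 of all 320 members. The list is not complete, since Ankrd11 (gaining) and Smchd1 (losing), also chromatin genes, have members outside it. The related remodellers Chd2 and Chd9 went opposite ways. Chd2 had 88 and 114 site reads in 4T1-U1-ASO and 2 and 4 in 4T1, with 161 and 164 last-exon reads in 4T1-U1-ASO and 12 and 35 in 4T1, and its usage was 38.2% ± 4.01 in 4T1-U1-ASO and 12.3% ± 2.85 in 4T1 (SD, n = 2 each). Chd9 had 9 and 6 site reads in 4T1-U1-ASO and 10 and 17 in 4T1, with 73 and 59 last-exon reads in 4T1-U1-ASO and 1 and 11 in 4T1, and its usage was 10.1% ± 1.23 in 4T1-U1-ASO and 75.8% ± 21.4 in 4T1 (SD, n = 2 each). The last exon was higher in 4T1-U1-ASO in both genes, and only in Chd2 were the site reads higher as well. Med1, a Mediator subunit, lost usage with 4 and 2 site reads in 4T1-U1-ASO and 17 and 11 in 4T1. Hdac2, a histone deacetylase, was used at 33.1% ± 0.28 in 4T1-U1-ASO and 14.9% ± 0.42 in 4T1 (SD, n = 2 each).

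The ubiquitin list held 4 gaining and 4 losing members. Besides Uchl5, losses lay in Mdm4, an inhibitor of p53, at 5.44% ± 0.59 in 4T1-U1-ASO and 25.7% ± 9.62 in 4T1, and in the ligase Cblb at 2.87% ± 0.73 in 4T1-U1-ASO and 16.0% ± 9.73 in 4T1 (SD, n = 2 each). Without the first 4T1 library these differences were -13.4 percentage points for Mdm4, in place of -20.3, and -6.22 for Cblb, in place of -13.1. The cell cycle list had 2 gains, in Cenpf and Tpx2, and 1 loss, in Stag1. Cenpf, a kinetochore protein, had 103 and 75 site reads in 4T1-U1-ASO and 1 and 3 in 4T1, and its usage was 41.4% ± 1.86 in 4T1-U1-ASO and 8.06% ± 4.32 in 4T1 (SD, n = 2 each). The spindle factor Tpx2 differed by 8.72 percentage points, or 5.66 without the first 4T1-U1-ASO library. Among cleavage and polyadenylation factors Wdr33, which binds the poly(A) signal, gained at 21.3% ± 0.38 in 4T1-U1-ASO and 8.62% ± 2.24 in 4T1, while Pabpn1, the nuclear poly(A)-binding protein, lost at 5.38% ± 0.60 in 4T1-U1-ASO and 13.6% ± 0.65 in 4T1 (SD, n = 2 each). The cytoskeleton list had 3 gains, in Ctnnd1 (p120 catenin), the formin Diap3 and the integrin chain Itgb1, and 2 losses, both in Rock2.

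Of the 286 genes, 257 had 1 member, 25 had 2 and 4 had more. Of the 29 genes with several members, 15 had only gaining and 11 only losing ones. Tpr, a nuclear pore protein, had 4 gaining members spread along the gene, with 144 and 167, 186 and 202, 170 and 136, and 69 and 61 reads in 4T1-U1-ASO from upstream to downstream. In 4T1 the same sites had 9 and 8, 4 and 17, 4 and 13, and 3 and 2 reads, and the last exon had 272 and 230 reads in 4T1-U1-ASO and 29 and 71 in 4T1. All 4 Tpr sites and the last exon were thus higher in both treated libraries. Ptpn11 (the phosphatase SHP2), Tlk1 (a kinase of chromatin assembly) and Eif4g2 (a translation initiation factor) had 3 gaining members each. The most used Ptpn11 site was at 48.8% ± 2.28 in 4T1-U1-ASO and 18.5% ± 1.13 in 4T1, and the most used Eif4g2 site at 42.6% ± 1.36 in 4T1-U1-ASO and 21.5% ± 5.74 in 4T1 (SD, n = 2 each). Both Ankhd1 members and both Tulp4 members lost usage. The more 5' Ankhd1 site had 77 and 112 reads in 4T1-U1-ASO and 170 and 219 in 4T1, beside a last exon with 27 and 39 reads in 4T1-U1-ASO and 2 and 6 in 4T1. Members of 1 gene share its last-exon reads and are not independent.

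In 3 genes, among them Rbm39 and Cdca8, the members went both ways, and in each the losing site lay upstream of the gaining one. Rbm39 lost usage at its upstream site, with 36 and 33 reads in 4T1-U1-ASO and 26 and 62 in 4T1. It gained 7066.5 bp further along (between interval centres), at 53.5% ± 0.48 in 4T1-U1-ASO and 31.3% ± 8.14 in 4T1 (SD, n = 2 each). The gaining Rbm39 site had 1007 and 1138 reads in 4T1-U1-ASO and 93 and 166 in 4T1, and its last exon had 863 and 1002 in 4T1-U1-ASO and 158 and 484 in 4T1. Cdca8 (borealin, of the chromosomal passenger complex) had 5 and 7 reads upstream in 4T1-U1-ASO and 28 and 35 in 4T1, and 100 and 103 reads downstream in 4T1-U1-ASO and 64 and 52 in 4T1. Counting all listed sites, 10 losing members had a gaining site downstream in their gene and 5 had one upstream. In Rock2 the downstream site, no member since it had 0 and 2 reads in 4T1, had 133 and 171 reads in 4T1-U1-ASO.

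In width and strand, which the selection did not use, the 2 classes were close. They differed in the number of listed sites in the gene, in the share lying most upstream there and in chromosome X, with no test made. Median interval width was 286 bp for gaining and 269 bp for losing sites, against 257 bp for all listed sites. The plus strand held 44.1% of gaining and 53.1% of losing sites, against 49.2% of all listed. Another listed site lay in the gene of 45.8% of gaining and 26.6% of losing sites, against 44.7% of all listed. In such genes the losing site was the most upstream listed one in 20 of 38 cases and the gaining site in 28 of 81, against 38.4% of all listed sites there. It was the most downstream one in 17 of 38 losing and 39 of 81 gaining cases, against the same 38.4%. The part of the number of listed sites per gene in these shares was not tested. Chromosome X held 2 gaining sites (1.13%) and 8 losing ones (5.59%), against 2.43% of all listed sites.

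The lines 4T07 and 168FARN took no part in choosing the sites. The authors' deposited table of 4T07 against 168FARN, with 329 sites, all with an authors' adjusted p no higher than 0.1, overlapped 22 of the 143 losing sites (15.4%), 2 of the 177 gaining sites (1.13%) and 18 of the 1241 less used sites (1.45%), by at least 1 bp on the same strand. All 22 losing sites had a lower usage in 4T07 in that table, where 79.6% of all sites were lower. They correspond to 21 table sites, since both Tulp4 members overlap the same one. At all 22 both 4T07 libraries were below both 168FARN libraries. The table was selected on this contrast and the share over all 329 sites was not computed, so this describes the listing. Median usage of these sites was 9.80% in 4T07 and 26.3% in 168FARN, and, in the separately normalised U1 tables, 3.76% in 4T1-U1-ASO and 17.9% in 4T1. Their usage in 4T07 lay between that in 4T1-U1-ASO and that in 4T1 at 18 of the 22, and usage in 168FARN was above that in 4T1 at 18. Most of the intervals differ between the 2 comparisons, so these usages count reads over unlike stretches. Both 4T07 libraries had fewer site reads, before scaling, than both 168FARN libraries at 20 of the 22, and more last-exon reads at 14. These counts describe the same listing. Losing sites also had a listed peak in both 4T07 libraries more often (72.6% on autosomes) than gaining sites (41.7%), and the part of read number in the overlap was not tested.

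Rock2 had the largest of these differences, with an authors' log2 fold change of -3.20 in the deposited table. Its most 5' site had 28 and 48 reads in 4T07 and 211 and 380 in 168FARN. Last-exon reads went the other way, at 99 and 98 in 4T07 against 49 and 64 in 168FARN. Mean usage reached 27.5% ± 7.66 in 4T07, against 83.4% ± 3.13 in 168FARN (SD, n = 2 each). Smarcad1 had 41 and 38 site reads in 4T07 and 172 and 135 in 168FARN, at 61.4% ± 2.77 usage in 4T07, against 93.9% ± 4.65 in 168FARN (SD, n = 2 each). Cflar, an inhibitor of caspase-8, showed 12.5% ± 0.75 usage in 4T07, against 47.9% ± 1.82 in 168FARN, and Tnrc6c, a scaffold of microRNA silencing, 5.47% ± 1.54 in 4T07, against 32.6% ± 3.84 in 168FARN (SD, n = 2 each). Tulp4 remained a mostly intronic transcript, at 88.2% ± 5.42 in 4T07, against 97.8% ± 0.24 in 168FARN, and Zdhhc18, a palmitoyltransferase, was little used, at 1.27% ± 1.05 in 4T07 against 10.9% ± 2.21 in 168FARN (SD, n = 2 each). Of the gaining sites in that table, Chka (choline kinase alpha) was higher in 4T07, with 21 and 22 site reads against 3 and 3 in 168FARN, and Ppm1a, a protein phosphatase, was lower, with 48 and 64 site reads in 4T07 and 144 and 136 in 168FARN.

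**Figure D5:**
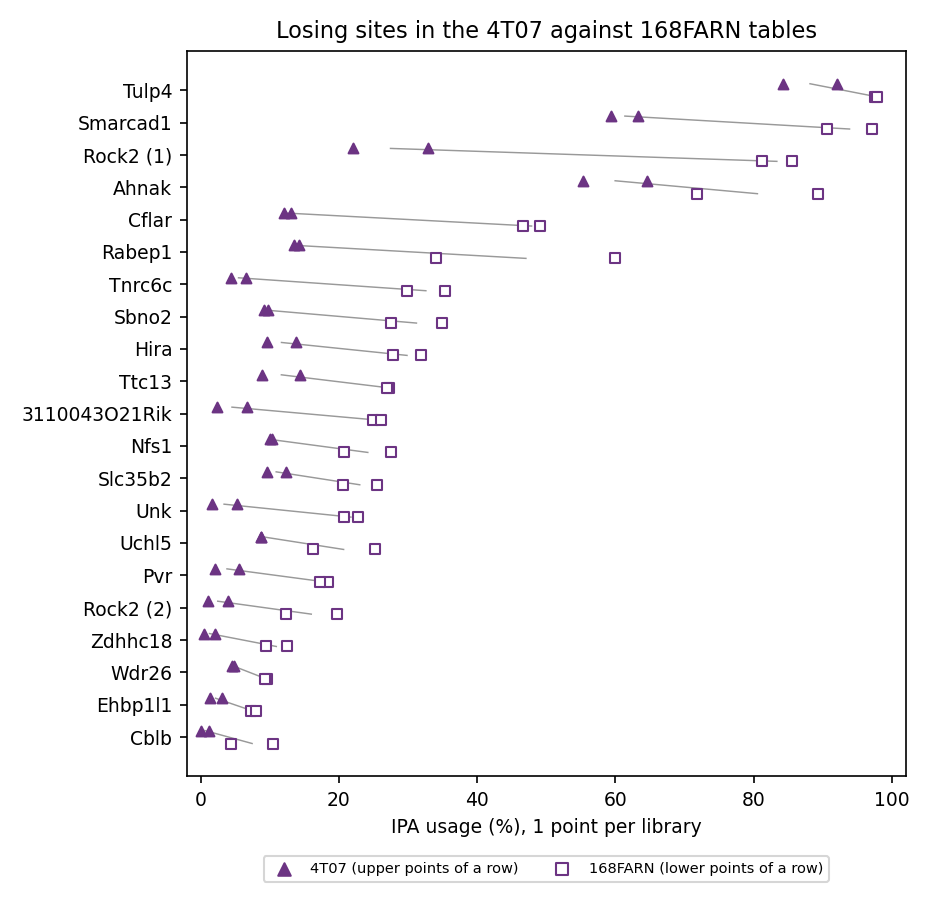
IPA usage per library (x axis, %) for the 21 table sites that overlap the 22 losing members in the 4T07 against 168FARN comparison, with 4T07 as filled triangles above 168FARN as open squares in each row and a line joining the means. In every row both 4T07 libraries lie below both 168FARN libraries, and Rock2 (1) has the widest gap at 27.5% in 4T07 and 83.4% in 168FARN. All rows were listed by the authors as differing in this comparison.

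The other 3 line tables share libraries with that comparison or with the choice of sites, so their values are set side by side only. 4T07 against 67NR, which shares the 4T07 libraries, held 10 losing members, of which 7 were lower and 3 higher in 4T07, and 3 gaining members, all lower, in a table with 82.2% of its sites lower. 4T1 against 67NR held 5 losing members, 4 of them higher in 4T1, and 1 gaining member, which was lower, in a table with 76.2% lower. 4T1 against 168FARN held 3 losing members, of which 2 were higher in 4T1, and 2 gaining members, both lower, in a table with 75.3% lower. Cpeb3 was used at 88.7% ± 2.53 in 4T1 and 32.7% ± 16.5 in 67NR, and at 19.8% ± 12.3 in 168FARN (SD, n = 2 each). Rock2, at 27.5% ± 7.66 in 4T07, stood at 83.4% ± 9.88 in 67NR (SD, n = 2 each). Vmp1 had 65.7% ± 1.52 usage in 4T07, against 43.2% ± 4.52 in 67NR, and Stag1 61.3% ± 1.98 in 4T07, against 32.2% ± 10.4 in 67NR (SD, n = 2 each). Rock2 was thus higher and the other 3 lower in 67NR than in the line set against it. In all, 38 members stood in at least 1 line table, 32 of them losing and 6 gaining.

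Read counts of the peak lists allowed a test that the selection did not use. Of the 320 members, 164 had a peak region that passed the low-count filter in 4T07 and 168FARN, 87 gaining and 77 losing, so that 156 were not tested. edgeR's quasi-likelihood test (adjusted p under 0.05 over 15870 regions) called 16 of the 77 losing sites lower in 4T07, beside 15.9% of all regions, and 4 higher, beside 17.0%. Of the 87 gaining sites 12 were called lower and 5 higher. The median log2 ratio of 4T07 over 168FARN was -0.59 for the losing sites and -0.03 for the gaining sites, against 0.03 for all regions. Below 0 were 55 of the 77 losing and 46 of the 87 gaining sites, and the share over all regions was not computed. These ratios use reads of the site alone, in bulk RNA, so a gene expressed less in 4T07 and a site used less cannot be told apart here. The calls rested on having all 4 libraries. Without any 1 of them, fewer losing sites and fewer gaining sites were called lower. Calls over all regions fell as well, so the fall was not particular to these sites.

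The largest fitted changes were of sites with no listed peak in 1 of the lines. Lower ones lay in Nrp2, a semaphorin receptor and losing member, with 0 and 0 reads in 4T07 and 275 and 334 in 168FARN, and in the gaining members Aimp1, Commd1, Vapa and Polr2b, all with 0 reads in both 4T07 libraries. Higher ones lay in the gaining members Itgb1, Ube2k, Tpr and Cnot3 and the losing member Prkcz, all with 0 reads in both 168FARN libraries. Itgb1 had 96 and 130 reads in 4T07. The filtered lists leave out some sites that the tables count, since 4.58% to 12.8% of the 4T07 against 168FARN table's sites with 20 or more reads in a library had no peak in that library's list, so these zeros may be omissions. Among regions with a listed peak in each line, 15 of 75 losing sites tested were lower and 3 higher, and 6 of 77 gaining sites were lower and 1 higher, beside 14.2% of all such regions lower and 13.9% higher. Hira, a histone chaperone, was among the lower losing sites with 16 and 27 reads in 4T07 and 117 and 143 in 168FARN, a log2 fold change of -2.55 (edgeR adjusted p = 0.0123). Smarcad1 and the more 5' Tulp4 site were also lower, at -1.91 (edgeR adjusted p = 0.0163) and -1.99 (edgeR adjusted p = 0.0110), with reads of both 4T07 libraries below both 168FARN libraries. Hira was named after its values were seen. Hira, Smarcad1 and Tulp4 were also listed by the authors as lower in 4T07 in this comparison. The same libraries gave both, so these p-values are not independent of that listing.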

How the data were processed

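The series measured 3' ends of poly(A)+ RNA in 10 libraries from 5 groups. Per the submitters' processing notes, the build was mm9 and the tools were DESeq2 1.4.5, Bowtie2 2.2.5, bedtools 2.17.0 and SAMtools 1.1, with no step given for each. Per the file headers, the deposited comparison tables hold the authors' log2 fold change, its standard error, an adjusted p-value, and a normalised signal of each IPA site and last exon per library. The deposited peak lists give a read count per peak. Coordinates are mm9, 1-based.

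Each deposited signal was divided by the value of 1 read in its column, which gave whole reads. Usage was computed per library and averaged. Log2 ratios used a pseudocount of 0.5 on the deposited signal. edgeR 4.0.16 (quasi-likelihood, filterByExpr, Benjamini-Hochberg) tested usage as an interaction of group and feature, site reads, and last-exon reads, over all 1561 sites with the authors' size factors, and peak regions merged over the 4 lists of 4T07 and 168FARN with TMM scaling, on chromosomes present in all 4 lists. DESeq2 1.42.0 and other scalings, filters and left-out libraries were alternatives. The fits were tested on simulated data with changes of 2 on the log2 scale, a dispersion of 0.05 and most features unchanged. For 4T1-U1-ASO against 4T1, 51% were recovered for usage (1557 sites), 56% for site reads (820 sites) and 99% for last-exon reads (1123 genes), and for 4T07 against 168FARN 89% (15681 regions). Unchanged features called numbered 3, 7, 11 and 13 in the same order. The listed U1 sites were selected for change, unlike the simulated ones, so these shares do not give the power of the real fits.

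The members and lists were chosen with earlier results of these data known. Sites were named by size of change, list membership, place at the usage minimum, read number or place in a line table. The design had line-table sites matched by the same interval, which found 4 members, so any overlap of 1 bp on the same strand was used instead, chosen after seeing the data. Intervals, floors and read counts cover counting error only, since no molecular identifiers are given. All 286 gene symbols matched the reference names, 275 under the same symbol and the others through a unique synonym. A few members' values are not reported here.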

Additional observations from a re-analysis of the deposited data

How the results depend on the processing

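The counts of members depended on the thresholds. A usage minimum of 0.10 left 82 gaining sites and one of 0.02 gave 394. A deposited adjusted p of at most 0.05 left 81 gaining sites, and one of at most 0.01 left 23 gaining and 42 losing sites. Leaving out 1 library at a time, site reads were called higher at 52 to 110 gaining sites, and last-exon reads lower at 60 to 120 gaining and 9 to 37 losing sites and higher at 27 to 64 losing sites. Scaling by peak-list totals, added after seeing the data, called site reads higher at 153 gaining sites and last-exon reads lower at 49 gaining and 8 losing sites. It gave site medians of 1.43 (gaining) and -1.53 (losing) and last-exon medians of -0.23 (gaining) and 1.01 (losing) on the log2 scale. No median changed sign under it.

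In 4T07 against 168FARN, leaving out 1 library gave 0 to 8 gaining sites higher and 0 to 3 lower, and 0 to 3 losing sites higher and 0 to 4 lower. With no low-count filter 19 of 127 gaining sites were higher and 25 lower. Beside them stood 2.25% higher and 1.83% lower of all 163555 regions, low-count ones included. With a peak listed in each line, added after seeing the data, 1 of 77 gaining sites was higher and 6 lower, beside 13.9% and 14.2% of all such regions. DESeq2 called 7 gaining sites higher and 15 lower, and 4 losing sites higher and 18 lower. The replicate block left 0 calls in edgeR, over all regions too. Its unadjusted p was under 0.05 at 22 of 87 gaining and 25 of 77 losing sites, beside 5856 of all 15870 regions. Same-numbered libraries deviated together by a correlation of 0.02 there, and of -0.03 (site) and 0.0028 (last exon) in the U1 contrast, so the numbers are not shown to pair them. With the block the U1 contrast gave 176 and 141 usage calls, and its other counts moved by less than 1.5 times. The cause of these changes was not tested. With 2 libraries a group, an exact permutation test of 1 site could not go below 0.333.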
